A study of Mus musculus with 6 samples.

Results

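DNA replication and mitosis genes were followed in the embryonic mouse tongue, with earlier results of these data known. They form a list of 37 genes named by their place in the cell cycle. Of these, 36 had at least 1 probe set assigned to that gene alone, out of 18193 genes read by the array, and Ccnb1, the remaining one, was not analysed here. The 36 genes were sorted into 15 S-phase genes (DNA replication and the step into it), 15 mitotic genes and 6 cyclins and kinases of G1. All 36 lay above the filter on dim genes (a mean of 5.17 on the log2 scale), so all of them were among the 13645 genes tested.

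The mutants were 3 tongues at embryonic day 14.5 of the genotype Tgfbr2 fl/fl; Wnt1-Cre, and they were set against 3 tongues of the same day with the genotype Tgfbr2 fl/fl and no Cre, which the titles call wildtype. All embryos were of strain C57BL/6J, and both groups carried the floxed alleles. Wnt1-Cre acts in the neural crest and its descendants, so the receptor gene is targeted in most tongue connective tissue, while muscle fibres, epithelium and the lining of blood vessels come from other lineages and keep it. The labels name the material tongue in one field and tongue mesenchyme in another, leave the sex undetermined and do not tell whether the replicates are different litters or embryos. The p-values therefore speak of the scatter among these 6 samples, which may be partly technical. Each sample was read on 1 Affymetrix array, on the log2 scale.

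Tgfbr2 itself was at 11.16, 11.79 and 11.69 in mutants and 11.55, 11.82 and 11.80 in controls, with overlapping groups (-0.18, 95% interval -0.59 to 0.23, limma adjusted p = 0.642). The sources used here do not say where its probes lie relative to the floxed part, so these values do not check the labels.

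A dividing cell first licenses its origins of replication by loading the MCM helicase with Cdc6 and Cdt1, then copies its DNA in S phase with clamps such as PCNA and nucleotides from ribonucleotide reductase, and then separates the copies in mitosis under cyclin B and Cdk1. Many S-phase genes are driven by E2F transcription factors, whereas many mitotic genes are held silent early in the cycle through a CHR element and are activated through CCAAT boxes by NF-Y. In the embryonic tongue the transcripts come from all dividing cells: connective tissue, myoblasts, epithelium, vessels and blood. TGF-beta is known as a brake on the division of epithelial cells and as a growth signal for some mesenchymal cells.

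Promoters were read because the S-phase and mitotic genes differ in how they are known to be regulated. RefSeq promoter windows of the assembly GRCm38.p6, from 250 bases before to 50 bases after the start site, were at hand for 31 of the 37 listed genes (33 windows). Searched on both strands were an E2F site (any of TTTCCCGC, TTTGGCGC, TTTCGCGC and TTTGCCGC), the CHR element TTTGAA and the CCAAT box, and no motif lies wholly within another. An E2F site was in the windows of 6 of 13 S-phase genes (Mcm3, Mcm5, Mcm6, Mcm7, Cdc6 and Cdt1) and of 1 of 14 mitotic genes (Cdk1), against 2.26% of all 32851 windows. The CHR element was in the windows of 1 of 13 S-phase genes and of 11 of 14 mitotic genes, against 17.9% of all windows, and each of those 11 windows also held a CCAAT box. CCAAT boxes were in 8 of 13 S-phase and 13 of 14 mitotic windows, against 37.4% of all windows. The counts of listed genes take any window of a gene, the share of all windows is per window, and the 14 mitotic genes include Ccnb1. These matches describe letters and show no binding.

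Shown first are 4 S-phase promoters with E2F sites or CCAAT boxes in capitals, chosen because Rrm2 was the only called gene of the list, Cdc6 had the next most negative difference, and Mcm3 and Mcm5 carry both kinds of site. The Rrm2 window is chr12:24708004-24708303 on the plus strand. The Cdc6 window is chr11:98907901-98908200 on the plus strand. The Mcm5 window is chr8:75109259-75109558 on the plus strand, with E2F matches on both strands that overlap. The Mcm3 window is chr1:20820263-20820562 on the minus strand. All are GRCm38.p6, written 5′ to 3′ along the gene.
Rrm2: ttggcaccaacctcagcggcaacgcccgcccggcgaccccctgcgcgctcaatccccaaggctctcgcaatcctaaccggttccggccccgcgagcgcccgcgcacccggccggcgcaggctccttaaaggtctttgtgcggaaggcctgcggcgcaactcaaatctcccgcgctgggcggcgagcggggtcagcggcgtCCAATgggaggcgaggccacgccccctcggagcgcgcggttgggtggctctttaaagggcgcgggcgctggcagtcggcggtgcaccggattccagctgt
Cdc6: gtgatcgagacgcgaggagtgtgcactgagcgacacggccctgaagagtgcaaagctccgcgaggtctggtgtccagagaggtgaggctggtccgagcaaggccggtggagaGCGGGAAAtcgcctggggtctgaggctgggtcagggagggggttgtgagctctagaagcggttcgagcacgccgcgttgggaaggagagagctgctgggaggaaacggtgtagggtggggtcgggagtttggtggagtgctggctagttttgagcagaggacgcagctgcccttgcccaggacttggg
Mcm5: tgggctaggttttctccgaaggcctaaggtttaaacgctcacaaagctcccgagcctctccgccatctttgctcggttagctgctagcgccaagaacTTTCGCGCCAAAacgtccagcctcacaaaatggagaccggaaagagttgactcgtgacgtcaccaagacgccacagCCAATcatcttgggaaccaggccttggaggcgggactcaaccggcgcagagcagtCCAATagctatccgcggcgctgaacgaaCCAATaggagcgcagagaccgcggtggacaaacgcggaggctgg
Mcm3: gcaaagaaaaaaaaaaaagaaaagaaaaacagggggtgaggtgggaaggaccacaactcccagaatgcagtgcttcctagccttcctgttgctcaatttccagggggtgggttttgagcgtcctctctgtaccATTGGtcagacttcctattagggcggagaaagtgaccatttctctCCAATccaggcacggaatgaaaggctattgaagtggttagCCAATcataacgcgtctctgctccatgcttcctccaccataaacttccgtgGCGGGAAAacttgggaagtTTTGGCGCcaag
The Rrm2 window held a CCAAT box and none of the E2F letters searched, and the Cdc6 window held 1 E2F match and no CCAAT box.

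For the mitotic genes, 4 promoters are shown with CHR elements and CCAAT boxes in capitals: Plk1 and Kif11, whose values did not overlap between genotypes, and Ccnb2 and Cdk1, whose values did. The Plk1 window is chr7:122159185-122159484 on the plus strand. The Kif11 window is chr19:37376132-37376431 on the plus strand. The Ccnb2 window is chr9:70421505-70421804 on the minus strand. The Cdk1 window is chr10:69352863-69353162 on the minus strand, and it alone among the 14 mitotic genes with a window also carries an E2F site, likewise in capitals.
Plk1: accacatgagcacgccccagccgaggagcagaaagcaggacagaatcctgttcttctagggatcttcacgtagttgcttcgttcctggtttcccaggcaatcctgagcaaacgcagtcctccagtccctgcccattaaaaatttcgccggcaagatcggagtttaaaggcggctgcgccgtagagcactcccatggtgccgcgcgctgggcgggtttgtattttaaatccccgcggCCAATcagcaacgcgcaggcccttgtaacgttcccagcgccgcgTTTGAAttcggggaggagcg
Kif11: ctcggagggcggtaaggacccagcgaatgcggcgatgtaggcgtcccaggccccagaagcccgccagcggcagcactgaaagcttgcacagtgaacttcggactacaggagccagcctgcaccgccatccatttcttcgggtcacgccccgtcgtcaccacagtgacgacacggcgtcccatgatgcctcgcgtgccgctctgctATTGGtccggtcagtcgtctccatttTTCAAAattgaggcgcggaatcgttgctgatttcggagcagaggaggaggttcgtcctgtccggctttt
Ccnb2: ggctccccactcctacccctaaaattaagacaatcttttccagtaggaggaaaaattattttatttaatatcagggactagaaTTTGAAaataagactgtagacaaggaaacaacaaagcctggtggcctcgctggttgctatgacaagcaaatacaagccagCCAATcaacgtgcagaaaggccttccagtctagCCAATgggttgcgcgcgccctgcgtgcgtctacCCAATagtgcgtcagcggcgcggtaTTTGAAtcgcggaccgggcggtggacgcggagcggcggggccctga
Cdk1: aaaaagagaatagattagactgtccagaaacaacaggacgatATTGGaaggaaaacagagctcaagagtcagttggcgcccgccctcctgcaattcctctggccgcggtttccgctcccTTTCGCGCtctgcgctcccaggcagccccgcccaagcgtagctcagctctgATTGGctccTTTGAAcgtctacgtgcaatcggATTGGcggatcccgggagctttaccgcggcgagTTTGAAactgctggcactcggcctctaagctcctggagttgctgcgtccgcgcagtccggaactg
In Kif11 both are read on the opposite strand, the CCAAT box from -45 and the CHR element from -19 relative to the start site. All 4 of these windows held a CHR element and a CCAAT box.

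Most of the list had lower values in the mutants, by small amounts, and 1 gene passed the test. Of the 36 genes, 32 had a negative log2 difference (mutant minus control) and the median was -0.20, against 46.6% of all tested genes negative and a median of 0.02. In 19 of the 36 every mutant array lay below every control array, against 11.5% of all tested genes, and in 0 of the 36 did every mutant array lie above (13.6% of all tested genes). At an unadjusted p under 0.05, 15 were lower and 0 were higher, against 7.46% and 9.43% of all tested genes. At an adjusted p under 0.05 (limma, Benjamini-Hochberg over all tested genes) 1 gene was lower, against 0.821% of all tested genes, and 0 were higher, against 1.32% (2.14% in either direction). In bulk tissue, fewer dividing cells and less RNA of these genes per cell cannot be told apart.

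**Figure D1:**
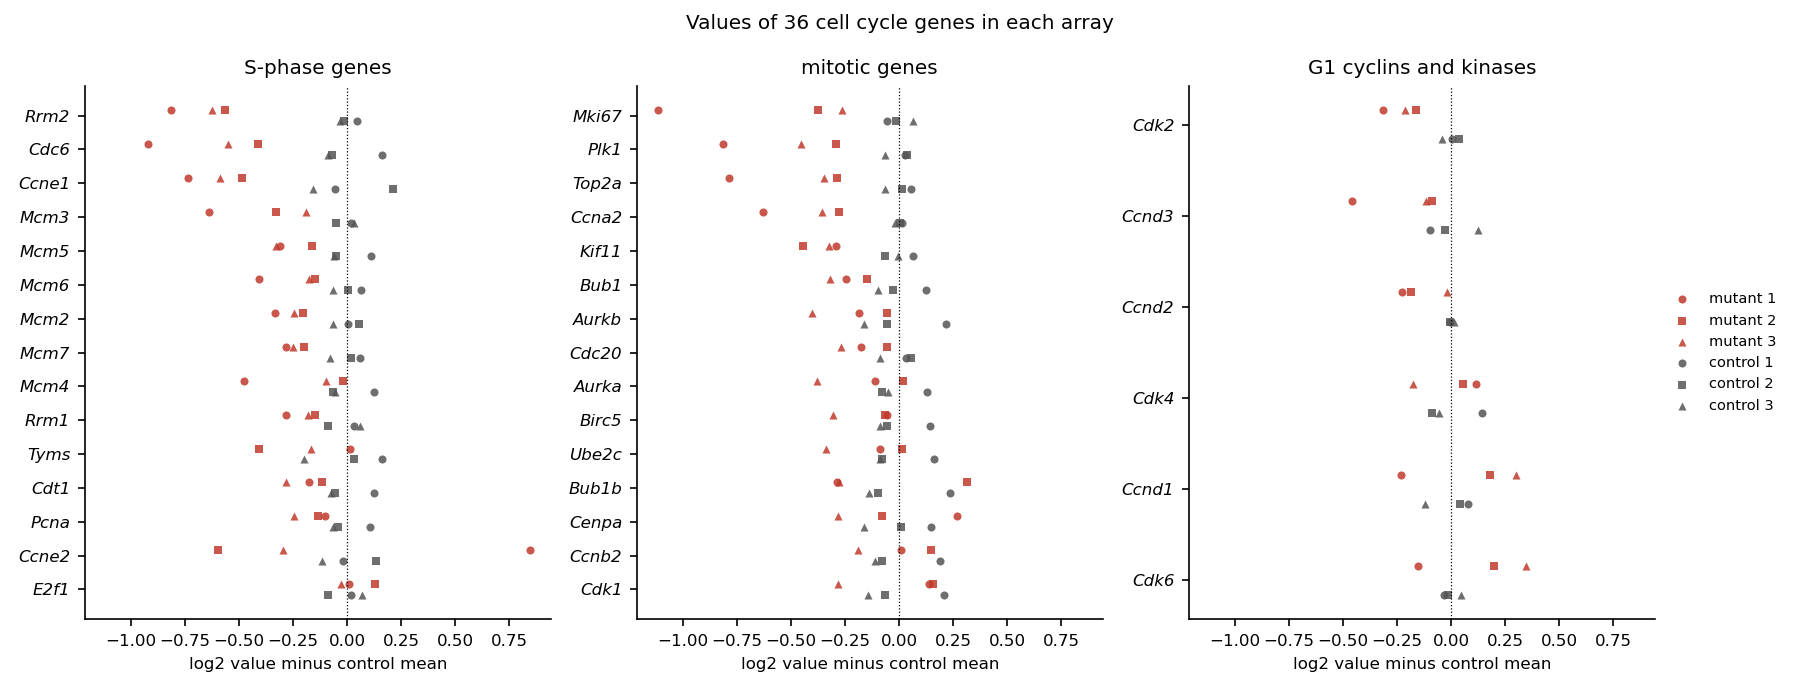
Log2 value of each of 36 cell cycle genes minus its control mean (x axis) in the 3 mutant (red) and 3 control (grey) arrays, by role, with 1 marker shape per replicate number. Mutant points lie left of all control points in 11 of 15 S-phase, 6 of 15 mitotic and 2 of 6 G1 genes (11.5% of all tested genes). Mutant array 1 is often the farthest left.

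Mutant array 1 stood apart from the other 5 arrays. Its correlation with any other array over the tested genes was at most 0.9782, against 0.9924 to 0.9976 for the closest match of each other array, and limma's array quality weight for it was 0.155, against 0.838 to 3.34 for the others. The list was lower in each mutant array on its own: mutant array 1 lay below all controls for 28 of the 36 genes (39.4% of all tested genes), mutant array 2 for 21 (28.4%) and mutant array 3 for 32 (31.4%). With mutant array 1 left out, 32 of the 36 genes were still negative and the median of the list was -0.189.

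Ribonucleotide reductase makes the deoxynucleotides for DNA synthesis, and the gene of its cell-cycle-regulated small subunit, Rrm2, had the most negative difference and the smallest p of the list. Rrm2 was at 11.51, 11.76 and 11.70 in mutant arrays 1, 2 and 3, against 12.37, 12.31 and 12.29 in control arrays 1, 2 and 3. The mutant values lay well below the control values, which were close to each other. The means were 11.66 ± 0.13 in mutants and 12.32 ± 0.039 in controls (SD, n = 3 each), so Rrm2 fell by 0.66 (standard error 0.0967, 1.58-fold, limma adjusted p = 0.0232). Its brightest probe set carries a suffix for probes shared with similar transcripts, and its 2 further probe sets, without that suffix, gave -0.62 and -0.58 (adjusted p = 0.0459 and 0.161 in a fit of single probe sets). The call was lost without mutant array 2 (adjusted p = 0.0544), without control array 1, 2 or 3 (0.0847, 0.134 and 0.128) and with sex as a covariate (0.0672), and the difference stayed between -0.72 and -0.59 over the 6 fits that left out 1 array. The large subunit gene Rrm1 did not pass: it was at 10.85, 10.98 and 10.95 in mutants and 11.16, 11.04 and 11.19 in controls. Its groups did not overlap, and the difference was -0.20 (95% interval -0.41 to 0.01, adjusted p = 0.313). Tyms, encoding thymidylate synthase, was read only by probe sets near or below the filter value, and its brightest gave 5.35, 4.93 and 5.17 in mutants and 5.50, 5.37 and 5.14 in controls, with overlapping groups (-0.19, adjusted p = 0.535).

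Origin licensing genes came next. Cdc6, encoding the ATPase that loads the MCM helicase onto origins, was at 8.26, 8.77 and 8.63 in mutants and 9.34, 9.11 and 9.09 in controls. The groups did not overlap, and mutant array 1 was the lowest. The difference was -0.63 (standard error 0.148, adjusted p = 0.0924). It passed without mutant array 1 (-0.48, adjusted p = 0.0492) and with array quality weights (-0.47, adjusted p = 0.031). Cdt1, the partner of Cdc6 in loading, was at 11.51, 11.57 and 11.40 in mutants and 11.81, 11.63 and 11.61 in controls. The groups lay next to each other without overlap (-0.19, adjusted p = 0.379).

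The MCM helicase is a ring of 6 different subunits that unwinds DNA at the fork, and all 6 of its genes had lower means in mutants. The differences lay between -0.39 and -0.20 with adjusted p between 0.186 and 0.511, so no subunit gene passed, and in 5 of 6 all mutants lay below all controls (11.5% of all tested genes). The lowest difference was that of Mcm3, at 10.17, 10.48 and 10.62 in mutants and 10.83, 10.76 and 10.84 in controls (-0.39, standard error 0.126). Its 4 further probe sets gave -0.39, -0.44, -0.32 and -0.49. Mcm7 was tight in both groups, at 11.94, 12.02 and 11.97 in mutants and 12.28, 12.24 and 12.14 in controls, a difference of -0.24 (95% interval -0.44 to -0.04, adjusted p = 0.216). Mcm2, Mcm5 and Mcm6 gave -0.25, -0.26 and -0.25. Mcm4 was the one with overlap, at 11.30, 11.76 and 11.68 in mutants and 11.90, 11.71 and 11.72 in controls, where mutant array 2 reached the controls. Its difference of -0.20 (adjusted p = 0.511) rested on mutant array 1, without which it was -0.056, and without control array 1 it was -0.13. Mcm6 gave -0.16 without mutant array 1. Pcna, encoding the sliding clamp of the DNA polymerases, was at 12.93, 12.90 and 12.79 in mutants and 13.14, 12.99 and 12.97 in controls. The groups did not overlap, by a narrow margin, and the gene did not pass (-0.16, adjusted p = 0.428).

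The cyclins E and E2f1, which drive the step from G1 into S phase, differed in their patterns. Ccne1, encoding cyclin E1, was at 9.80, 10.05 and 9.95 in mutants and 10.48, 10.75 and 10.38 in controls. No mutant value reached the controls. The difference of -0.60 (standard error 0.124) had an adjusted p of 0.0599, and of 0.0375 with the replicate number as a block. A further Ccne1 probe set, without the suffix for shared probes, gave 9.05 in mutants and 9.87 in controls (-0.82, adjusted p = 0.015 in a fit of single probe sets). As the mean of both probe sets the gene passed at -0.71 (adjusted p = 0.00671), in a fit that called 1.01% of all tested genes lower.

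Ccne2, encoding cyclin E2, was at 11.32 in mutant array 1 and at 9.88 and 10.18 in mutant arrays 2 and 3, against 10.46, 10.61 and 10.36 in controls. Mutant array 1 was the highest of the 6 and the other mutants were the lowest, so the mean difference was -0.01 with a 95% interval of -0.80 to 0.77 (adjusted p = 0.987). Without mutant array 1 it was -0.44 (adjusted p = 0.0933). E2f1, encoding an activating E2F factor, was at 7.61, 7.73 and 7.57 in mutants and 7.62, 7.51 and 7.67 in controls, with full overlap (0.04, 95% interval -0.18 to 0.25). Another E2f1 probe set of nearly the same mean level gave -0.17 (adjusted p = 0.561).

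**Figure D2:**
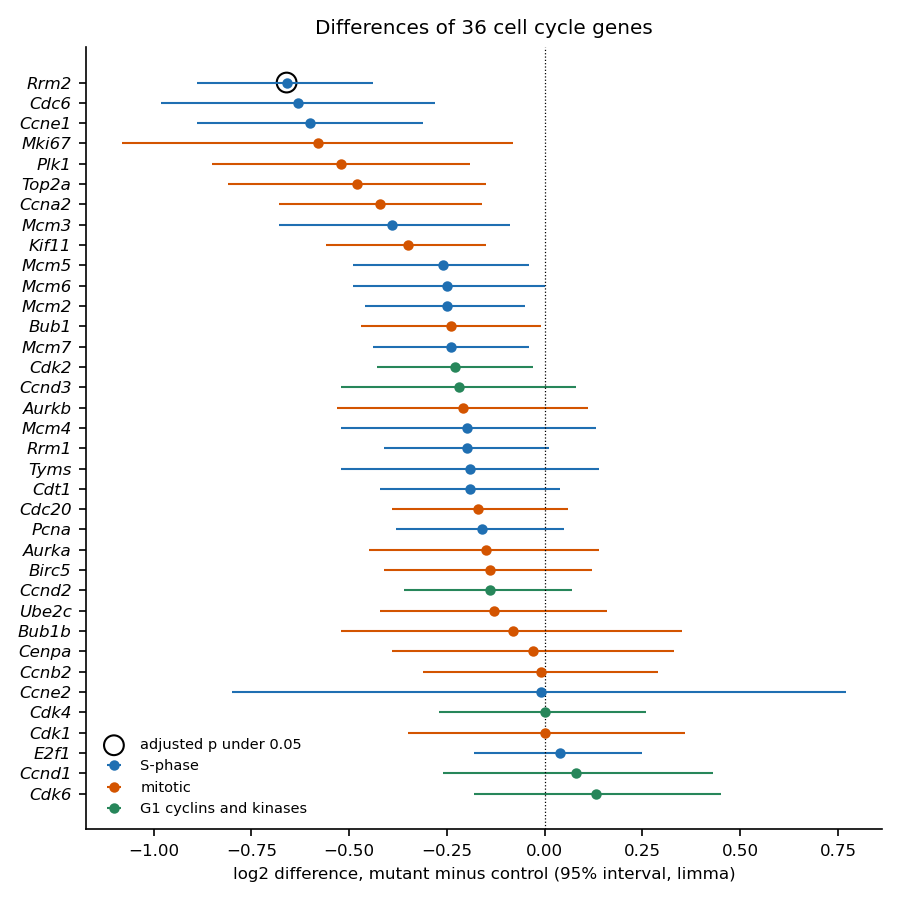
Log2 difference, mutant minus control (x axis), of the 36 genes with 95% intervals from limma, coloured by role, with a ring around the gene at an adjusted p under 0.05. Rrm2 at -0.66 carries the ring, and Cdc6, Ccne1, Mki67 and Plk1 have differences of -0.63 to -0.52 with wider intervals.

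Among the mitotic genes, 14 of 15 had a negative difference, with a median of -0.17, and 0 passed (limma; 6 had an unadjusted p under 0.05, all lower, against 7.46% of all tested genes). With array quality weights 3 passed, Ccna2, Plk1 and Kif11, in a fit that called 2.93% of all tested genes lower. The median was -0.282 without mutant array 2, -0.114 without mutant array 3 and -0.105 without control array 1. In Mki67, Top2a, Ccna2, Plk1, Kif11 and Bub1 the groups did not overlap (11.5% of all tested genes), Bub1 by a narrow margin. The means of Ccnb2, Cdk1 and Cenpa differed by at most 0.03, and the other 6 genes had differences between these.

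Mki67 encodes Ki-67, the chromosome coat protein used as a marker of dividing cells. It was at 10.81, 11.55 and 11.66 in mutants and 11.87, 11.91 and 11.99 in controls. Mutant array 1 was far below the rest, and the other mutants were just below the controls. The difference of -0.58 (standard error 0.213, adjusted p = 0.232) was -0.32 without mutant array 1 (adjusted p = 0.0774). Top2a, encoding the topoisomerase that untangles replicated chromosomes, had 11.32, 11.82 and 11.76 in mutants and 12.16, 12.12 and 12.04 in controls, also with mutant array 1 lowest (-0.48, standard error 0.141, adjusted p = 0.154). A dimmer Top2a probe set, at a mean of 6.47, gave -0.08 (adjusted p = 0.826 in a limma fit of single probe sets). As the mean of its probe sets, dim ones included, the gene gave -0.16 (adjusted p = 0.399).

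Ccna2, encoding cyclin A2 of S phase and early mitosis, was at 10.60, 10.95 and 10.87 in mutants and 11.24, 11.23 and 11.21 in controls. The controls were nearly equal and all mutants were below them. The difference was -0.42 (standard error 0.111, adjusted p = 0.119, and 0.0375 with array quality weights). Plk1, encoding a kinase of mitotic entry and spindle assembly, was at 8.34, 8.86 and 8.70 in mutants and 9.18, 9.19 and 9.09 in controls (-0.52, standard error 0.14, adjusted p = 0.124, and 0.0369 with array quality weights). Kif11, encoding the motor that pushes the spindle poles apart, was at 9.24, 9.09 and 9.21 in mutants and 9.60, 9.47 and 9.53 in controls. Here mutant array 1 was the highest mutant, and the groups were each tight. Its difference of -0.35 (standard error 0.0886, adjusted p = 0.106) passed without mutant array 1 (-0.38, adjusted p = 0.0481) and with array quality weights (0.0344), and its 2 further probe sets gave -0.45 and -0.51.

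The spindle checkpoint kinase gene Bub1 was at 10.18, 10.28 and 10.11 in mutants and 10.55, 10.40 and 10.33 in controls, with no overlap (-0.24, adjusted p = 0.284). Its relative Bub1b was at 8.78, 9.38 and 8.79 in mutants and 9.30, 8.97 and 8.93 in controls, where mutant array 2 was the highest of the 6 (-0.08, adjusted p = 0.855). The chromosomal passenger genes Aurkb, encoding Aurora B kinase, and Birc5, encoding survivin, gave -0.21 and -0.14 with overlapping groups (adjusted p = 0.474 and 0.56). Aurka, encoding the Aurora kinase of spindle poles, gave -0.15 (adjusted p = 0.572). Cdc20 and Ube2c, which serve the ubiquitin ligase that ends mitosis, gave -0.17 and -0.13 (adjusted p = 0.434 and 0.623). All 5 differences were smaller without mutant array 3, at -0.12 for Aurkb, -0.06 for Birc5, -0.0423 for Aurka, -0.11 for Cdc20 and -0.0342 for Ube2c, and without control array 1 those of Aurkb, Birc5, Aurka and Ube2c were -0.10, -0.0699, -0.0881 and -0.0526.

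The mitotic kinase gene Cdk1, the cyclin gene Ccnb2 and the centromere gene Cenpa showed no separation, and Ccnb1 was not analysed. Cdk1 was at 10.98, 11.00 and 10.56 in mutants and 11.05, 10.78 and 10.70 in controls. The highest and the lowest of the 6 values were control array 1 and mutant array 3, with the others between (difference 0.00, 95% interval -0.35 to 0.36, adjusted p = 0.993). Ccnb2, encoding cyclin B2, was at 10.28, 10.42 and 10.08 in mutants and 10.46, 10.19 and 10.16 in controls (-0.01, 95% interval -0.31 to 0.29). Cenpa, encoding the histone of centromeres, was at 11.00, 10.65 and 10.45 in mutants and 10.88, 10.74 and 10.57 in controls (-0.03, 95% interval -0.39 to 0.33). The intervals of these 3 genes include decreases as large as those of most S-phase genes, so they do not show that the genes were unaffected.

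The S-phase and mitotic genes were then set against each other array by array. With each gene's control mean subtracted, the S-phase median was -0.31, -0.20 and -0.25 in mutants 1, 2 and 3, against 0.06, -0.05 and -0.06 in controls 1, 2 and 3. The mutant arrays were close to each other and all below the controls. The mitotic median stood at -0.18, -0.06 and -0.32 in mutants and 0.13, -0.05 and -0.09 in controls. Mutant array 2 reached the controls there, and mutant array 3 was the lowest. All tested genes had array medians between -0.01 and 0.04.

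Mutant array 3 lay below all controls in 15 of 15 mitotic genes and 13 of 15 S-phase genes, whereas mutant array 2 did so in 6 of 15 mitotic and 13 of 15 S-phase genes. Mutant array 1 did so in 11 of 15 mitotic and 12 of 15 S-phase genes. Over all tested genes the shares below all controls were 39.4%, 28.4% and 31.4% for mutant arrays 1, 2 and 3. The median difference of the S-phase genes was -0.24 and that of the mitotic genes was -0.17, and S-phase minus mitotic was -0.0774. This difference ran from -0.126 to 0.00108 when 1 array was left out, and it was not tested. Array by array, the S-phase median minus the mitotic median was -0.13, -0.14 and 0.07 in mutants and -0.07, 0.00 and 0.03 in controls. These values overlapped, with a standard deviation of 0.0903 between single arrays of a group. A larger decrease of S-phase genes than of mitotic genes is therefore not resolved by these 6 arrays. Within same-numbered pairs, the S-phase median of mutant minus control was -0.34, -0.22 and -0.18 for numbers 1, 2 and 3, and the mitotic median was -0.36, -0.09 and -0.24.

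**Figure D3:**
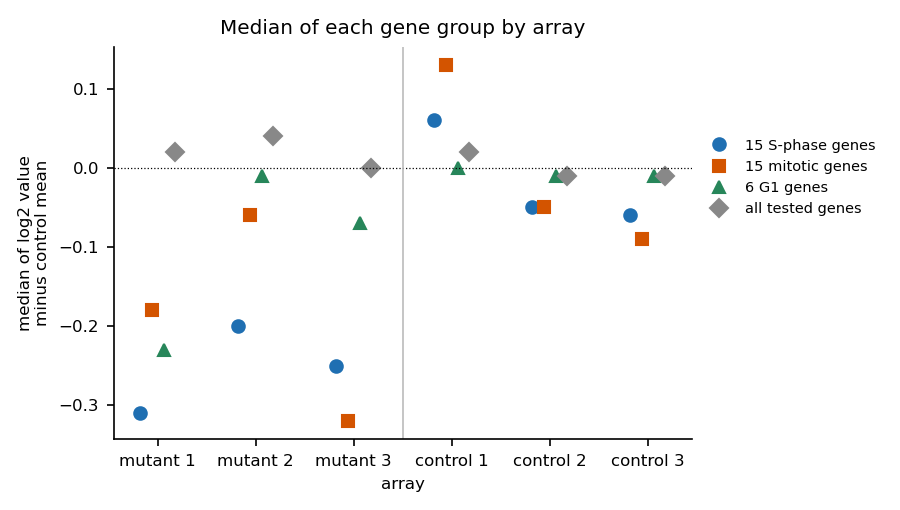
Median over the genes of each group of the log2 value minus the control mean (y axis) in each mutant and control array (x axis), for 15 S-phase, 15 mitotic and 6 G1 genes and all 13645 tested genes. S-phase medians are at -0.31 to -0.20 in mutants and at or above -0.06 in controls, while the mitotic median of mutant array 2 (-0.06) lies among the controls.

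The cyclins and kinases of G1, which link growth signals to the cycle, had a median difference of -0.07. In limma 0 of 6 passed, against 2.14% of all tested genes. At an unadjusted p under 0.05, 1 was lower and 0 were higher, against 7.46% and 9.43% of all tested genes. With array quality weights 0 passed, in a fit that called 2.93% of all tested genes lower. With 6 genes, a count of 0 cannot be told apart from these shares. Cdk2, the kinase partner of cyclins E and A, was at 9.60, 9.75 and 9.70 in mutants and 9.92, 9.95 and 9.87 in controls. The groups did not overlap (-0.23, 95% interval -0.43 to -0.03, adjusted p = 0.24). Ccnd2, encoding cyclin D2, was at 12.96, 13.00 and 13.17 in mutants and 13.18, 13.18 and 13.20 in controls, where mutant array 3 nearly met the controls (-0.14, adjusted p = 0.469). Its 6 further probe sets gave between -0.40 and -0.05.

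Ccnd3, encoding cyclin D3, which muscle cells keep as they differentiate, was at 10.55, 10.92 and 10.89 in mutants and 10.91, 10.98 and 11.13 in controls, with mutant array 1 lowest (-0.22, adjusted p = 0.435). Without that array the difference was -0.0982. Ccnd1, encoding cyclin D1, was at 11.24, 11.65 and 11.77 in mutants and 11.55, 11.51 and 11.35 in controls. Mutant array 1 was below all controls and the other mutants were above them (0.08, adjusted p = 0.807). Cdk6 showed the same order, at 8.84, 9.19 and 9.34 in mutants and 8.96, 8.98 and 9.04 in controls (0.13, adjusted p = 0.657). The difference was 0.28 without mutant array 1 and 0.0228 without mutant array 3. Cdk4, which shares its cyclin partners, was at 11.83, 11.77 and 11.54 in mutants and 11.86, 11.63 and 11.66 in controls, with a difference that rounds to 0.00 (95% interval -0.27 to 0.26).

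Different probe sets of a gene mostly had the same sign. Of 40 further probe sets above the filter value, in 23 of the genes, 36 had the sign of the brightest one and 34 were lower in mutants. The brightest probe set of 10 genes carries a suffix for shared probes, among them those of Rrm2, Ccne1, Mcm2, Mcm3, Mcm5 and Mcm7, and these can also read related transcripts.

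Genes of the same processes outside the list were examined as 42 other replication genes and 48 other mitosis genes. Of 40 replication genes tested, 33 were negative with a median of -0.10, in 10 all mutants lay below all controls (11.5% of all tested genes), and 2 passed, both lower (0.821% of all tested genes). Pold2, encoding a subunit of DNA polymerase delta, was at 9.92, 9.97 and 9.90 in mutants and 10.48, 10.40 and 10.39 in controls. Both groups were tight and far apart, and Pold2 fell by 0.49 (standard error 0.0819, adjusted p = 0.0298). Uhrf1, encoding the protein that brings DNA methylation to new strands, was at 10.76, 10.74 and 10.91 in mutants and 11.29, 11.22 and 11.31 in controls, and fell by 0.47 (standard error 0.09, adjusted p = 0.0476). Both calls were lost without mutant array 2 or 3, without any one control array, with sex as a covariate and in the fit blocked on replicate number. Over the alternatives the adjusted p was 0.00732 to 0.172 for Pold2, which passed in 8 of 15, and 0.0168 to 0.254 for Uhrf1, which passed in 6 of 15. With the block it was 0.0508 for Pold2 and 0.0595 for Uhrf1. Pola1, of the primase polymerase, and Orc1, of the origin recognition complex, gave -0.30 and -0.29 (adjusted p = 0.14 each).

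Of the 48 mitosis genes, 45 were negative with a median of -0.19, in 19 all mutants lay below all controls (11.5% of all tested genes), and 0 passed (limma; 17 had an unadjusted p under 0.05, all lower, against 7.46% of all tested genes). The smallest p were those of Gtse1, a spindle-associated gene, with -0.36, and of the condensin genes Smc4, Smc2 and Ncapg, with -0.50, -0.36 and -0.29 (adjusted p = 0.126 to 0.167). Condensin compacts chromosomes in mitosis. As in the list itself, mutant array 3 was below all controls in most of these mitosis genes, 47 of 48 (31.4% of all tested genes). Mutant array 1 was so in 29 (39.4%) and mutant array 2 in 27 (28.4%).

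**Figure D4:**
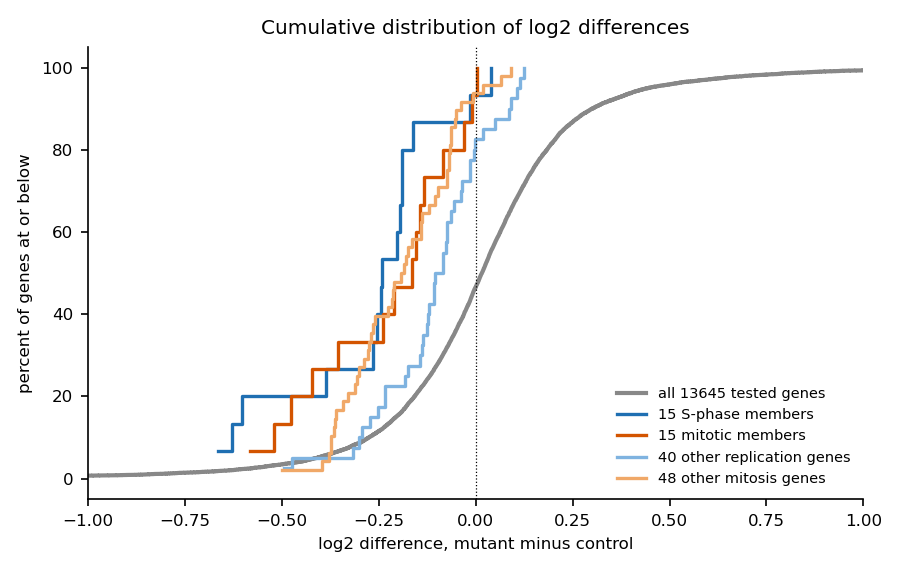
Percent of genes (y axis) at or below a log2 difference, mutant minus control (x axis, drawn from -1 to 1), for 15 S-phase and 15 mitotic genes of the list, 40 other replication genes, 48 other mitosis genes and all 13645 tested genes. The 4 gene lists lie left of all tested genes, with medians of -0.24, -0.17, -0.10 and -0.19 against 0.02.

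Markers of the tissues in a tongue sample also differed between the groups. Summed over a list on the linear scale and given as log2, 10 skeletal muscle markers were at 14.92, 15.39 and 15.49 in mutants. In controls they were at 15.56, 15.89 and 15.90 (0 called, against 2.14% of all tested genes). Of the 10, 9 were negative and 1 positive, and single differences ran from -0.77 to 0.27. Summed likewise, 7 endothelium markers were at 9.66, 10.51 and 10.53 in mutants and 10.74, 10.67 and 10.71 in controls (0 called). For endothelium, mutant array 1 was far below the rest and the other mutants just below the controls. Higher in mutants were the sums of 8 epithelium markers, at 14.87, 14.55 and 14.23 in mutants and 13.87 to 13.98 in controls (0 called). The sums of 8 macrophage markers were also higher, at 11.19 to 11.32 in mutants and 10.98 to 11.11 in controls. Of the macrophage markers, 3 were called higher and 1 lower, against 1.32% and 0.821% of all tested genes. Their single differences ran from -1.53 to 1.05, with 6 of 8 positive. The 7 Schwann cell and nerve markers were at 11.94 to 12.40 in mutants and 11.78 to 11.95 in controls. They touched only between mutant array 1 and control array 1. Of the 7, 6 were positive, with a median difference of 0.37, and 1 was called higher (1.32% of all tested genes). The sums of 8 connective tissue mesenchyme and 6 embryonic red cell markers overlapped between the groups (0 called). The mesenchyme sums were 15.22, 15.70 and 15.82 in mutants and 15.70, 15.88 and 15.87 in controls, with mutant array 1 lowest. Of the 8 mesenchyme markers, 7 were negative, with a median difference of -0.29. Of the 6 red cell markers, 4 were negative, with a median of -0.10. No measured marker lay below the filter value. The part of these shifts in the lower values of the cell cycle genes was not tested.

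The calls depended on single arrays and on the weighting. The count of called genes on the list was 1 in the reported fit, 2 with the replicate number as a block (Rrm2 and Ccne1; 1.52% of all tested genes lower), 3 without mutant array 1 (Rrm2, Cdc6 and Kif11; 1.74%), and 6 with array quality weights (those 4 with Ccna2 and Plk1; 2.93%). It was 0 without mutant array 2 and without each of the control arrays, and 0 with sex as a covariate, where Xist, high in mutant arrays 1 and 3 and control array 1, served to assign it. Each call under these settings was a decrease in mutants.

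**Figure D5:**
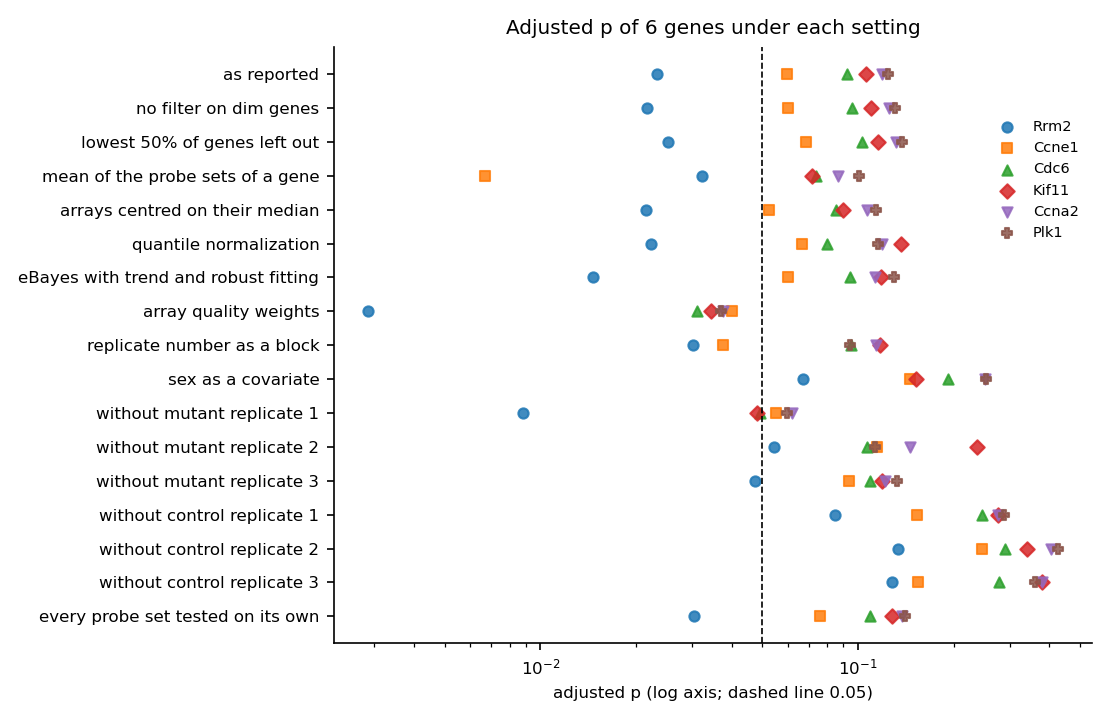
Adjusted p (x axis, log scale, dashed line at 0.05) of Rrm2, Ccne1, Cdc6, Kif11, Ccna2 and Plk1 in the fit as reported and under each alternative setting (y axis). Rrm2 is left of the line in the reported fit (0.0232) and in 11 of 16 alternatives, and all 6 genes are left of it with array quality weights.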

How the data were processed

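Total RNA from embryonic tongues was measured on 6 Affymetrix arrays. The authors deposited 1 log2 value per probe set and array, made with RMA, per the submitters' processing notes, without a version. RMA corrects background, normalizes quantiles and summarises probes, which gives all arrays nearly the same distribution and compresses differences of dim genes. Arrays have no read depth, and their number limits the precision.

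Probe sets with 1 gene symbol in the platform annotation were kept (34945 of 45101). The brightest probe set stood for a gene, and the lowest 25% of genes by mean were left out. The genotypes were compared by limma 3.58.1 (R 4.3.3, lmFit and eBayes, 2-sided, Benjamini-Hochberg over 13645 genes, threshold 0.05). The same fit was also run on simulated data. Over all tested genes the standard error of a difference had a median of 0.117. Medians of gene groups are descriptions without a test. Alternatives were other filters, probe set rules, scalings, variance models and thresholds, each array left out, the replicate number as a block, weights for array quality and sex (from Xist) as a covariate. The genes named are the whole list, and up to 4 genes of smallest p in each other list. The list, the groups and the other gene lists were chosen with earlier results of these data known.

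Same-numbered mutant and control arrays deviated together from their group means (correlations 0.309, 0.105 and 0.206, all over 0.1). Mutant array 2 with control array 3 (0.196) and mutant array 3 with control array 2 (0.147) were also over 0.1, so arrays 2 and 3 are not separated by number. The meaning of the numbers is not given in the labels, and the reported fit is unpaired. Pairs by number entered only the fit with the replicate number as a block and the medians within same-numbered pairs. With the block, limma's adjusted p was 0.0375 for Ccne1, 0.0508 for Pold2 and 0.0595 for Uhrf1. In the reported fit it was 0.0599, 0.0298 and 0.0476. Figures were drawn with matplotlib 3.10.9.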

Additional observations from a re-analysis of the deposited data

How the results depend on the processing

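With 3 arrays a group, single arrays decide which genes pass, and groups of 3 are too small for an outlier test. Over 16 alternative fits, 28 of the 36 genes kept their sign in every fit in which they were tested, and the other 8 had reported differences from -0.08 to 0.08. The number of genes on the list called lower was 1 in the reported fit (0.821% of all tested genes lower). It was 2 with probe sets averaged per gene (1.01%), 6 with array quality weights (2.93%) and 2 with the replicate block (1.52%). It was 0 with sex as a covariate, 2 in a fit of single probe sets and 3 at an adjusted p under 0.1. With 1 array left out it was 0 to 3, with 3 without mutant array 1 (1.74%). In each of these 0 were called higher. Over all genes, 292 were called in either direction in the reported fit and 151 with a filter of 50% in place of 25%. The count was 326 with probe sets averaged per gene, 302 in a fit of single probe sets and 1034 with array quality weights. It was 490 with the replicate block, 135 with sex as a covariate and 549 at an adjusted p under 0.1. With 1 array left out it ran from 16 (without control array 2) to 670 (without mutant array 1). Leaving out an array also leaves fewer degrees of freedom, and the cause of the other shifts was not tested.

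The medians of the list, of the S-phase genes and of the mitotic genes moved by less than the standard deviation between arrays in every fit where they were recomputed. With 1 array left out they ranged between -0.263 and -0.147, -0.282 and -0.208, and -0.282 and -0.105. Signs changed as follows. Using the mean of the probe sets gave E2f1 -0.0318 and Cdk4 0.0057. Centring the arrays on their median gave Cdk1 -0.0322. Quantile normalization gave Ccne2 0.013, Ccnb2 0.0386 and Cdk4 0.0187. Array quality weights gave Ccnb2 0.0353 and Bub1b 0.0622, and the sex covariate gave Cdk1 -0.011. With 1 array left out the log2 differences ranged from -0.44 to 0.27 for Ccne2, -0.00847 to 0.0726 for E2f1, -0.0883 to 0.0845 for Ccnb2, -0.0732 to 0.14 for Cdk1, -0.28 to 0.0342 for Bub1b, -0.18 to 0.0954 for Cenpa, -0.0244 to 0.24 for Ccnd1 and -0.0615 to 0.0838 for Cdk4. Tyms was not tested with the 50% filter or with the mean of its probe sets, which put it below those filters.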

Other observations

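Of the regulators of the cell cycle outside the list, 1 of 13 CDK phosphatases, kinases and inhibitors and 0 of 18 transcription regulators passed, a share near the 2.14% of all tested genes. Cdkn2b encodes p15, an inhibitor of Cdk4 and Cdk6 that is known as a TGF-beta target in epithelial cells. It was at 7.33, 7.08 and 7.01 in mutants and 6.32, 5.98 and 5.96 in controls, well apart, and rose by 1.05 (standard error 0.135, limma adjusted p = 0.015). The call was lost without mutant array 2 (0.0581), control array 2 (0.1) or control array 3 (0.0973), and the adjusted p was 0.00119 to 0.1 over 14 alternatives. Of the 13 tested CDK phosphatases, kinases and inhibitors, 8 were negative (median -0.08), and the next smallest p were those of Cdkn2c, another inhibitor of the same kinases, with -0.36, of the phosphatase gene Cdc25a, with -0.32, and of the kinase gene Wee1, with -0.32 (adjusted p = 0.157 to 0.172).

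Of 18 transcription regulators of the cycle, 14 were negative, with a median of -0.16, and 0 passed (limma; 3 had an unadjusted p under 0.05, against 7.46% of all tested genes lower). E2f2, an activating E2F gene, was at 7.80, 7.95 and 8.22 in mutants and 8.43, 8.70 and 8.70 in controls, without overlap (-0.62, standard error 0.137, adjusted p = 0.0777), while E2f1 had overlapping groups. Mycn, a growth regulator gene, gave -0.43 (adjusted p = 0.164), E2f8, a repressing E2F gene, -0.35 (0.29), and E2f3, an activating one, -0.28 (0.336).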
